A study of Rattus norvegicus with 10 samples.

Results

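All libraries taken after a therapy were compared, as a single group, with the libraries taken before it, to find which miRNAs of the treated tissue differ in the same direction whatever the therapy and the time. The members were found by their titles: 8 libraries carry the name of a therapy and 2 carry the name of the time before therapy, which together are the 10 libraries of the series. All come from female Wistar rats in which arthritis was induced with bovine type II collagen in Freund's adjuvant (collagen-induced arthritis, CIA), and the groups hold 2 libraries each. CIA_B is the group before therapy. MS_E and MS_A were sampled 1 h and 34 days after mechanical stimulation (MS, which the labels call acupuncture), in which a thin needle was inserted and twirled at points of the lower back and the leg. PLA_E and PLA_A were sampled 1 h and 34 days after placebo, a peritoneal injection of sterile saline. Every animal, before or after therapy, carried CIA and was shaved, and the tissue around the stimulation points was excised at sacrifice, so that no animal stands at both times. The therapy, the time since CIA_B and the course of the arthritis run together between CIA_B and the later groups and cannot be told apart.

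miRNAs are short RNAs that guide a silencing complex to messages, mainly by pairing of the seed, bases 2 to 8 from the 5′ end, with the target. Several are characteristic of a cell lineage: miR-1, miR-133 and miR-206 of skeletal muscle, miR-208b and miR-499 of its slow fibres, miR-223 and miR-142 of blood cells, the miR-200 family and miR-205 of epithelia. Others respond to the state of a tissue. miR-21 rises in inflamed and injured tissue, miR-34a is a target of p53, and the miR-17/92 cluster, driven by MYC, favours proliferation.

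The libraries held between 1513799 reads on miRNAs (CIA_B replicate 1) and 8926170 (MS_E replicate 1). Levels are in cpm, read counts relative to the library total and scaled by the TMM factors of edgeR, and pairs of CIA_B values are given with replicate 1 first. On this scale 3 reads were worth 2.60 cpm in CIA_B replicate 1 and from 0.366 to 0.828 cpm in the other 9 libraries, so low miRNAs were measured least precisely in one of the 2 libraries that every comparison rests on. Of 723 mature miRNAs, 359 had at least 1 cpm in at least 5 libraries and were tested. The labels name muscle and the study subcutaneous tissue with its muscle; miR-133a-3p, a marker of skeletal muscle, lay between 67930 and 139400 cpm in the 10 libraries. miR-1-3p did not: in each group 1 library held between 80420 and 123000 cpm and the other between 10120 and 15570 cpm, and miR-206-3p, which has the same seed, split the same libraries. The 5 libraries with the higher miR-1-3p are CIA_B replicate 1, MS_E replicate 2, MS_A replicate 2, PLA_E replicate 1 and PLA_A replicate 1. The labels do not say whether the libraries of a group are separate animals, and p-values measure only the spread between these libraries.

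The sequences below are those of the 11 miRNAs that passed the thresholds described next and of some, not all, relatives that share their seed. The miR-181 pair is shown as well, because miR-181d-5p was lower in every library after therapy. Each sequence is the mature miRNA from the RefSeq annotation of GRCr8, written 5′ to 3′ with the seed in capitals. The first 3 share the seed of miR-34, the next 2 that of miR-17, the next 2 that of miR-19, the next 2 that of miR-99 and miR-100, the next 2 that of miR-181 and the next 2 that of miR-381, while the last 6 share no seed with one another or with those above them.
miR-34a-5p: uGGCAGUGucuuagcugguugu
miR-34c-5p: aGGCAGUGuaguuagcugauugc
miR-449a-5p: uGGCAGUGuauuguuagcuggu
miR-20a-5p: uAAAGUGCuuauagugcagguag
miR-17-5p: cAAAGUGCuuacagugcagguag
miR-19a-3p: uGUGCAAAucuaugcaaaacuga
miR-19b-3p: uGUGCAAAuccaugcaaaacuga
miR-99b-5p: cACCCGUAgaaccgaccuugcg
miR-100-5p: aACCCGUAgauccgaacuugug
miR-181c-5p: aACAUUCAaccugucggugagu
miR-181d-5p: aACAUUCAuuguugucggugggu
miR-381-3p: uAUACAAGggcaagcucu
miR-539-3p: cAUACAAGgguaauuucuuuuc
miR-223-3p: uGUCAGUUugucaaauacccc
miR-21-5p: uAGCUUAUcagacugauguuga
miR-17-1-3p: aCUGCAGUgaaggcacuugugg
miR-200c-3p: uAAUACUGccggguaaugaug
miR-672-5p: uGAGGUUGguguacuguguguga
miR-7a-1-3p: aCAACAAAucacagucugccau

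After therapy, 9 miRNAs were higher and 2 lower than before it by the thresholds of the study, which ask for more than 2-fold change at an unadjusted p under 0.05. The higher ones were miR-672-5p, miR-20a-5p, miR-223-3p, miR-7a-1-3p, miR-34a-5p, miR-21-5p, miR-17-1-3p, miR-200c-3p and miR-19a-3p, and the lower ones miR-381-3p and miR-99b-5p. These 11 are 3.06% of the 359 miRNAs tested, 2.51% higher and 0.557% lower. They are called differential here. With p under 0.05 alone there were 13 (3.62%), the other 2 being miR-181d-5p and miR-324-3p, whose changes stayed within 2-fold. None (0.0%) had an adjusted p under 0.05 with edgeR's quasi-likelihood test and Benjamini-Hochberg adjustment, the smallest being 0.940; DESeq2 and limma-voom also gave 0. Another 37 miRNAs differed by more than 2-fold without p under 0.05. Over all 359, 207 fitted changes were positive (57.7%) and 152 negative (42.3%), with a median log2 fold change of 0.08.

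**Figure D1:**
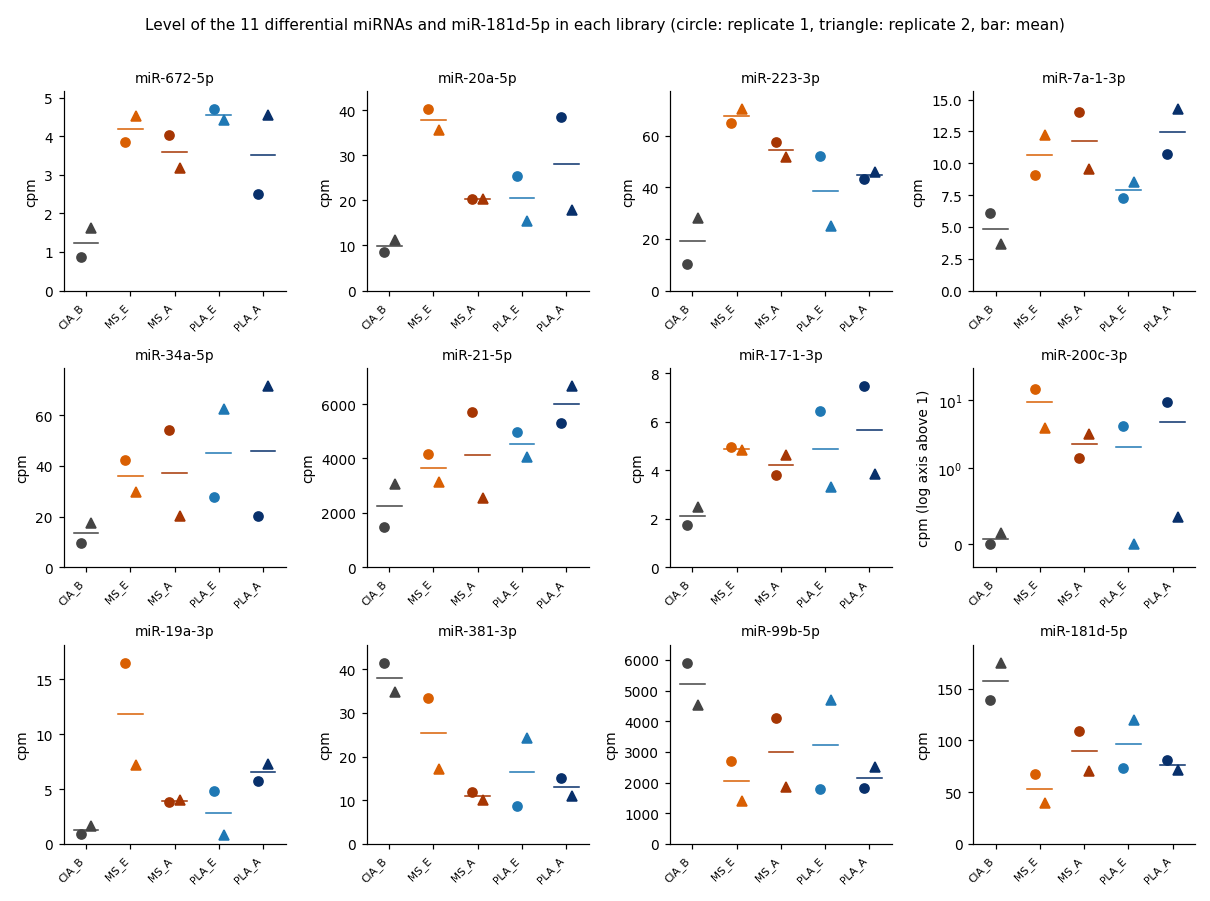
Level in cpm of the 11 differential miRNAs and of miR-181d-5p in each of the 10 libraries by group, with circles for replicate 1, triangles for replicate 2 and a bar for the group mean (linear axes, except miR-200c-3p). miR-20a-5p lies at 8.66 and 11.2 cpm in CIA_B and at 20.4 to 40.1 cpm in all treated libraries but PLA_E replicate 2 and PLA_A replicate 2, which are lower and still above CIA_B.

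The miRNAs of blood cells and inflammation come first. miR-223-3p, abundant in neutrophils and other myeloid cells, had 10.4 and 28.1 cpm in the CIA_B libraries and a lowest, median and highest level of 25.1, 51.8 and 70.1 cpm in the 8 libraries after therapy. Only PLA_E replicate 2 lay below the higher CIA_B library, so the groups overlapped by 1 library. The change was 2.58-fold, a log2 fold change of 1.37 ± 0.47 (SE; edgeR's quasi-likelihood test, unadjusted p = 0.0126, Benjamini-Hochberg adjusted p = 0.940). miR-21-5p, the most abundant of the 9 that rose, had 1461 and 3067 cpm before therapy and 2549, 4570 and 6661 cpm (lowest, median, highest) after it. MS_A replicate 2 alone fell under the higher CIA_B library. Its log2 fold change of 1.01 ± 0.41 (unadjusted p = 0.0316 in edgeR, adjusted p = 0.940) lies at the 2-fold threshold. miR-34a-5p had 9.52 and 17.5 cpm before and 20.2, 36.0 and 71.5 cpm after therapy, with all 8 libraries above both of CIA_B. Its log2 fold change was 1.55 ± 0.59 (unadjusted p = 0.0209), with a two-sided exact permutation p of 0.0444, the smallest that the 45 ways to choose 2 of 10 libraries allow. Any miRNA without overlap has this permutation p, here and below, so it only restates the separation.

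The 5 leukocyte miRNAs tested (miR-223-3p, miR-142-3p, miR-142-5p, miR-146a-5p and miR-150-5p) were all fitted higher in all 4 treated groups, as were 29.0% of all miRNAs tested, with a median log2 fold change of 1.71 beside 0.08 over all miRNAs, and miR-223-3p alone passed the thresholds, beside 2.51% of all miRNAs called higher. Without PLA_A replicate 1 the median was 1.00 and 3 of the 5 passed, as did 12 of all 359, and without CIA_B replicate 1 none of the 5 did, beside 5 of all 359. Summed, they held 1648 and 1638 cpm before therapy and from 1975 to 14590 cpm after it, with a median of 2656 cpm. PLA_A replicate 1 is the library at 14590 cpm. miR-142-3p and miR-142-5p, the products of both arms of 1 hairpin made in blood cells, were each higher in all 8 libraries than in both of CIA_B. miR-142-3p had 4.33 and 5.0 cpm before therapy and 7.17, 25.6 and 636 cpm after it, and its log2 fold change of 4.29 ± 2.10 had an unadjusted p of 0.0594. Without PLA_A replicate 1 that change was 2.18 (unadjusted p = 0.0155), and that of miR-142-5p fell from 2.69 (unadjusted p = 0.102) to 1.00 (unadjusted p = 0.0455). For miR-150-5p, which marks mature lymphocytes, PLA_A replicate 1 also held the most, 6222 cpm against 572 and 343 cpm in CIA_B. The 4 treated libraries with the higher miR-1-3p held 1156 to 6222 cpm of it and the other 4 held 256 to 527 cpm. MS_E replicate 1, at 256 cpm, lay below both CIA_B libraries. In bulk tissue, more cells of a type and more miRNA per cell cannot be told apart. The 3 erythroid miRNAs, which come with red blood cells, were also fitted higher, beside 57.7% of all miRNAs. They summed to 24.2 and 17.5 cpm before therapy and to between 17.4 and 88.6 cpm after it. None of the 3 passed the thresholds, and their median log2 fold change was 1.1. With the 34 days libraries only, all 3 passed (median 1.34), as did 31 of all 359. With the 1 h libraries only, none of the 3 did (median 1.18), beside 11 of all 359. The difference between the times was not tested. The part of red blood cells in the leukocyte values was not tested either.

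Of the 5 miRNAs listed as induced in inflammation, miR-21-5p and miR-34a-5p are the 2 that passed, both higher, beside 2.51% of all miRNAs called higher. The other members, miR-132-3p, miR-147 and miR-212-3p, did not, and the median of the list was 1.01, or 0.50 without CIA_B replicate 1, where none passed, and 1.65 without CIA_B replicate 2. In 10 other settings of scaling, tool, filter or model miR-21-5p was differential in 5 and miR-34a-5p in all 10. The 3 members of miR-29, which repress collagen messages, were fitted higher, beside 57.7% of all miRNAs, with a median log2 fold change of 0.73, and none passed. In all 4 treated groups 1 of them was higher, beside 29.0% of all miRNAs. Summed, they held 1297 and 1407 cpm before therapy and 799.9 to 2833 cpm after it, the lowest in MS_E replicate 1. With the 34 days libraries only, 2 of the 3 passed (median 1.02), as did 31 of all 359. With the 1 h libraries only, none of the 3 did (median 0.40). miR-29b-3p, for one, had 23.4 and 19.6 cpm before therapy and 21.5, 38.5 and 91.0 cpm after it (log2 fold change 1.16 ± 0.59, unadjusted p = 0.0727).

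Of the 13 tested members of miR-17/92 and its paralogs, 3 passed the thresholds, all higher, beside 2.51% of all miRNAs called higher, and 12 of the 13 were fitted higher, beside 57.7% of all, with a median log2 fold change of 0.83. The 3 are miR-20a-5p, miR-19a-3p and miR-17-1-3p, whose precursors lie within 10 kb of one another in the RefSeq annotation, with those of miR-18a, miR-19b and miR-92a. miR-20a-5p had 8.66 and 11.2 cpm before therapy and 15.5, 22.9 and 40.1 cpm after it, with no overlap. It rose by 2.61-fold, a log2 fold change of 1.38 ± 0.47 (edgeR unadjusted p = 0.0118, adjusted p = 0.940; exact permutation p = 0.0444). miR-17-1-3p, the other arm of the miR-17 hairpin, was low, with 1.73 and 2.50 cpm before (2 and 17 reads) and 3.31, 4.74 and 7.47 cpm after therapy. It did not overlap either, and its log2 fold change was 1.03 ± 0.47 (unadjusted p = 0.0329). It was differential in 1 of 9 other settings of scaling, tool, filter or model, and with limma-voom 1 of the 13 members passed in place of 3, as it did without CIA_B replicate 2, while none passed without CIA_B replicate 1.

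miR-19a-3p had 1 and 11 reads in the CIA_B libraries, 0.866 and 1.62 cpm, and 0.828, 5.28 and 16.5 cpm after therapy. PLA_E replicate 2, with 3 reads, lay below both CIA_B libraries while the other 7 lay above them (log2 fold change 1.95 ± 0.94, unadjusted p = 0.0375). Reads of such near-identical miRNAs as miR-19a-3p and miR-19b-3p, or miR-17-5p and miR-20a-5p, can be split between them by the counting, which makes their separate levels uncertain. The pooled level of the miR-19 seed went from 22.5 and 50.6 cpm to 22.9, 84.6 and 118 cpm, and overlapped in 2 libraries, PLA_E replicate 2 and MS_A replicate 2. miR-17-5p and miR-19b-3p, at log2 fold changes of 0.74 and 0.94, did not pass (unadjusted p = 0.139 and unadjusted p = 0.110), and that of miR-19b-3p was 0.41 without CIA_B replicate 1 and 1.65 without CIA_B replicate 2. The pooled level of the miR-17 seed, which miR-93-5p and miR-106b-5p share, was 254.5 and 263 cpm before and 274, 342 and 478.5 cpm after therapy, above CIA_B in all 8 libraries.

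Among the epithelial miRNAs, miR-200c-3p was at 0 and 1 reads before therapy and at 0, 3.54 and 14.7 cpm after it. PLA_E replicate 2 had no read, which with 3 reads allows up to 0.828 cpm. The other 7 libraries had higher values than CIA_B, but no read in CIA_B replicate 1 allows up to 2.60 cpm, and MS_A replicate 1 (1.42 cpm) and PLA_A replicate 2 (0.365 cpm) lie under that. Against a floor of 3 reads in each CIA_B library the mean level was at least 3.04-fold higher. The unadjusted p of 0.0338 in edgeR belongs to the fitted log2 fold change of 3.37 and not to this bound. miR-200b-3p, also at 0 and 1 reads before, was at least 3.61-fold higher against the same floor. That bound rests on a single library, with 34.1 cpm in MS_E replicate 1 and from 0.552 to 2.28 cpm in the other 7. The fitted change of miR-200b-3p had an unadjusted p of 0.0584 in edgeR. Without MS_E replicate 1 miR-200c-3p was at least 2.09-fold higher, and the mean of miR-200b-3p, 1.39 cpm, was under the floor. The fitted log2 fold change of miR-200b-3p was then 1.85 (unadjusted p = 0.0062 in edgeR), past the thresholds. That fit still rests on 0 and 1 reads in CIA_B. All 6 epithelial miRNAs tested were fitted higher in all 4 treated groups, beside 29.0% of all miRNAs, in comparisons that share the CIA_B libraries, and without CIA_B replicate 1 no member passed the thresholds. The median log2 fold change was 2.56, or 1.68 with the miR-200 members just named at their bounds, and 1.21 without MS_E replicate 1. miR-184, which is also made in epithelia such as the cornea and skin but is not in the list, was lower than in CIA_B in 7 of the 8 libraries, all but MS_E replicate 1. miR-205, of stratified epithelium such as skin, had 17.3 and 32.5 cpm before and 22.4, 55.8 and 69.2 cpm after therapy (log2 fold change 1.01 ± 0.47, unadjusted p = 0.0519). Without CIA_B replicate 1 its log2 fold change was 0.57 and without CIA_B replicate 2 it was 1.54 (unadjusted p = 0.0435), past the thresholds. Summed, the list held 33.8 and 70.6 cpm in CIA_B and from 57.4 to 434.3 cpm after therapy, a median of 115 cpm, the highest being MS_E replicate 1. miR-141-3p, whose precursor lies within 10 kb of that of miR-200c, gave 220 of these: it had 1.73 and 2.94 cpm before therapy and from 3.04 to 26.6 cpm in the other 7 treated libraries. The share of skin in each excised piece is not given, and its part in these values was not tested.

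miR-672-5p and miR-7a-1-3p belong to none of the lists. miR-672-5p had the smallest p of all miRNAs. It is low, with 1 and 11 reads or 0.866 and 1.62 cpm before therapy, and 2.49, 4.22 and 4.69 cpm after it, and no treated library overlapped CIA_B, although the level of CIA_B replicate 1 rests on 1 read. The change was 2.51-fold, a log2 fold change of 1.33 ± 0.48 (edgeR unadjusted p = 0.00807, Benjamini-Hochberg adjusted p = 0.940). miR-7a-1-3p, the less used arm of a miR-7 hairpin, had 6.06 and 3.68 cpm before and 7.24, 10.1 and 14.2 cpm after therapy, again without overlap (log2 fold change 1.13 ± 0.43, unadjusted p = 0.0171). miR-324-3p, with 3.46 and 2.65 cpm before and 4.01, 6.22 and 7.50 cpm after, did not overlap and stayed below 2-fold (log2 fold change 0.90 ± 0.45, unadjusted p = 0.0477).

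Of the miRNAs that fell, miR-381-3p had 41.5 and 34.7 cpm before therapy and 8.58, 13.5 and 33.5 cpm after it. MS_E replicate 1 came within 2 cpm of the lower CIA_B library and the other 7 libraries were at 24.3 cpm or less. The log2 fold change was −1.19 ± 0.47 (edgeR unadjusted p = 0.0242, adjusted p = 0.940; exact permutation p = 0.0444). miR-539-3p, with the same seed and from the same cluster, had 9.52 and 2.06 cpm before therapy and from 0.804 to 6.25 cpm after it, and did not pass. miR-381 belongs to the imprinted Dlk1-Dio3 cluster, a large group of miRNAs expressed from the maternal chromosome that is active in developing and regenerating muscle. Of its 86 names in the files 54 were tested, 1 passed the thresholds, and 42 were fitted lower, beside 42.3% of all miRNAs, with a median log2 fold change of −0.32. In all 4 treated groups 13 were lower and 5 higher, beside 14.2% and 29.0% of all miRNAs. Over 24 alternatives that median was highest at 1 h only, 0.06 beside 0.07 over all miRNAs, with 1 of the 54 past the thresholds. It was lowest at 34 days only, −0.64 beside 0.13, where 8 of the 54 and 31 of all 359 passed. The difference between the times was not tested for the cluster. Without CIA_B replicate 1 the median was 0.04. The cluster summed to 5663 and 4644 cpm before therapy and to between 2225 and 5955 cpm after it. Both MS_E libraries (5813 and 5955 cpm) exceeded both of CIA_B, and PLA_E replicate 2 (5278 cpm) lay between them.

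miR-99b-5p had 5910 and 4534 cpm before therapy and 1386, 2182 and 4681 cpm after it, and PLA_E replicate 2 exceeded the lower CIA_B library. It fell by 1.00 on the log2 scale (SE 0.41, unadjusted p = 0.0326), at the 2-fold threshold. miR-100-5p, with the same seed, had 1523 and 1245 cpm before and 361, 624.8 and 1457 cpm after therapy and did not pass (log2 fold change −0.86 ± 0.47, unadjusted p = 0.0927). The list of miR-99/100 and miR-125, with 5 members, had a median of −0.40 (−0.66 without CIA_B replicate 2), 1 member past the thresholds, lower, beside 0.557% of all miRNAs, and 3 fitted lower, beside 42.3% of all. In the 4 treated libraries with the higher miR-1-3p, miR-99b-5p lay between 1386 and 1867 cpm, and in the other 4 between 2497 and 4681 cpm. The CIA_B library with the higher miR-1-3p was at 5910 cpm, more than any other library.

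All 4 miRNAs with the miR-181 seed were fitted lower, beside 42.3% of all miRNAs. miR-181d-5p had 139 and 175 cpm before and 39.0, 72.3 and 119.5 cpm after therapy, with all 8 libraries below both of CIA_B, and a log2 fold change of −0.99 ± 0.35 (unadjusted p = 0.0158) that stayed just within 2-fold. miR-181c-5p, from a hairpin within 10 kb of it, had 626 and 911 cpm before and 348, 528 and 745 cpm after therapy (log2 fold change −0.56 ± 0.30, unadjusted p = 0.0864), a change of −0.88 without CIA_B replicate 1 and −0.26 without CIA_B replicate 2. The pooled level of the seed, which miR-181a-5p and miR-181b-5p dominate, was 13080 and 18250 cpm before therapy and 9658, 15010 and 19190 cpm after it, so the groups overlapped at the level of the family.

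Other miRNAs lower in all 4 groups did not pass the thresholds. miR-26a-5p, among the most abundant miRNAs of the tissue, had 89360 and 114700 cpm before therapy and 52230, 59160 and 102000 cpm after it. Only MS_A replicate 1 was above the lower CIA_B library (log2 fold change −0.59 ± 0.32, unadjusted p = 0.0920). miR-23b-3p, miR-181c-3p, miR-369-5p and miR-6328 complete the 10 with the smallest p and had log2 fold changes from −0.93 to −0.58 with p from 0.0820 to 0.127. For miR-369-5p the log2 fold change of −0.92 became −0.36 without CIA_B replicate 1 and −1.39 without CIA_B replicate 2 (unadjusted p = 0.0470, past the thresholds), and for miR-6328 that of −0.93 became −1.47 and −0.17.

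**Figure D2:**
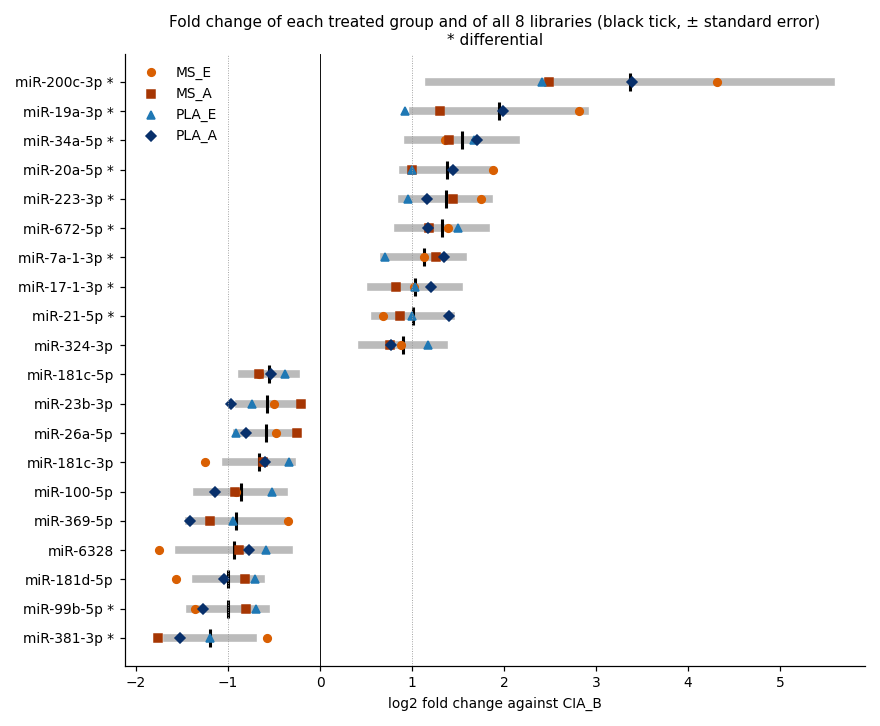
Log2 fold change against CIA_B of the 10 higher and 10 lower miRNAs with the smallest p among those that go the same way in all 4 treated groups, with a symbol for each group, a black tick for all 8 libraries together and a grey bar for its standard error. For miR-34a-5p the 4 groups lie between 1.36 and 1.71, while for miR-381-3p they spread from −1.76 (MS_A) to −0.58 (MS_E).

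Each of the 4 treated groups was also set against CIA_B in a fit with a mean for each group. These 4 comparisons share the CIA_B libraries, so a high or low value there moves all of them the same way. The fitted change had the same sign in all 4 groups for 155 miRNAs (43.2%), 104 higher (29.0%) and 51 lower (14.2%), and the 11 differential miRNAs were among them. More than 2-fold in all 4 groups were 9 miRNAs (2.51%), all higher, of which miR-672-5p, miR-34a-5p and miR-200c-3p are differential. For miR-200c-3p and miR-200b-3p, nearly unread in CIA_B, this count rests on fitted values: against the floor of 3 reads the mean of miR-200c-3p was 1.37-fold in PLA_E and 1.51-fold in MS_A, and that of miR-200b-3p was above the floor in MS_E alone, so more than 2-fold in all 4 groups is not shown for either. In MS_E, MS_A, PLA_E and PLA_A, in that order, miR-34a-5p had log2 fold changes of 1.36, 1.40, 1.68 and 1.71, and miR-672-5p of 1.39, 1.19, 1.5 and 1.17. miR-223-3p had 1.75, 1.45, 0.96 and 1.16, and miR-20a-5p 1.88, 1.00, 1.00 and 1.45. miR-21-5p ranged from 0.69 in MS_E to 1.40 in PLA_A.

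Of the other 6, miR-193-3p, miR-29a-5p, miR-494-3p and miR-872-3p (named after their values were seen) were higher in the treated libraries with the higher miR-1-3p. miR-193-3p had between 55.4 and 96.8 cpm in the 4 treated libraries with the higher miR-1-3p and between 1.66 and 7.84 cpm in the 4 with the lower. In CIA_B replicate 1, whose miR-1-3p was as high, miR-193-3p was at 7.79 cpm, and in CIA_B replicate 2 at 3.38 cpm. miR-872-3p showed a similar arrangement, with 103.5 to 153 cpm against 17.1 to 28.7 cpm after therapy, and 44.1 and 19.9 cpm in CIA_B. None of the 4 had p under 0.05. The remaining 2, miR-142-3p and miR-200b-3p, are described above.

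All 8 treated libraries lay above both CIA_B libraries for 12 miRNAs (3.34%) and below both for 2 (0.557%), miR-381-3p and miR-181d-5p. Of the 12, miR-200b-3p and miR-384-3p had at most 3 reads in each CIA_B library, so their place is not secured by these depths. That of miR-672-5p is not secured either. It had 1 read in CIA_B replicate 1, where 3 reads are worth 2.60 cpm, and 2.49 cpm in PLA_A replicate 1. miR-17-1-3p had 2 reads in CIA_B replicate 1. Of the 11 differential miRNAs 6 are among these 14: miR-672-5p, miR-20a-5p, miR-7a-1-3p, miR-34a-5p, miR-17-1-3p and miR-381-3p. That choice also fixes their order among the libraries of higher and of lower miR-1-3p. miR-21-5p overlapped over all libraries but not within these sets: it was at 1461 cpm in CIA_B replicate 1 against 2549 to 5311 cpm, and at 3067 cpm in CIA_B replicate 2 against 4061 to 6661 cpm. For miR-223-3p, miR-200c-3p, miR-19a-3p and miR-99b-5p, 1 treated library of lower miR-1-3p lay on the other side of CIA_B replicate 2, in each case PLA_E replicate 2. With the miR-1-3p level as a covariate 15 miRNAs were differential, 9 of the 11 among them.

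**Figure D3:**
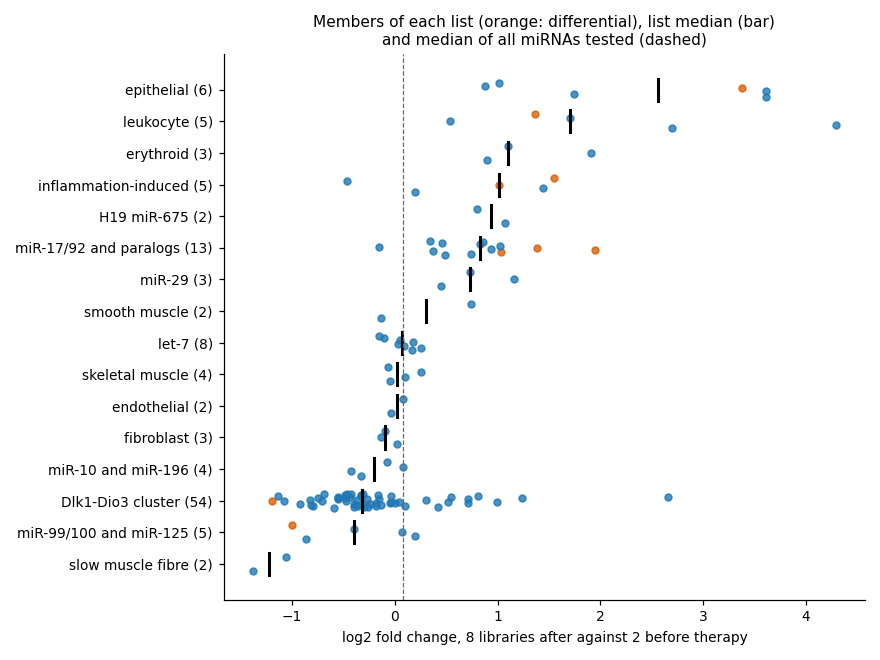
Log2 fold change of the 8 libraries after against the 2 before therapy for each tested member of the 16 lists (number of members in brackets), with differential miRNAs in orange, the list median as a black bar and the median of all 359 miRNAs (0.08) dashed. The epithelial, leukocyte and erythroid members all lie right of 0, and both slow muscle fibre members lie left of it.

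With both CIA_B libraries the skeletal muscle, endothelial and fibroblast lists had medians close to that of all miRNAs and the slow fibre list did not. The 2 slow muscle fibre miRNAs, miR-208b-3p and miR-499-5p, which are encoded in slow myosin genes, were fitted lower in all 4 groups, beside 14.2% of all miRNAs, with a median log2 fold change of −1.22, and neither passed. miR-208b-3p had 513 and 432.5 cpm before therapy and 32.7, 72.5 and 690 cpm after it (log2 fold change −1.38 ± 0.89, unadjusted p = 0.147). PLA_A replicate 1 was the library at 690 cpm, and without it the median of the list was −1.80 and both passed the thresholds, as did 12 of all 359 miRNAs. Both also passed with equal weight for the 4 groups, at 1 h only (median −2.05) and with mechanical stimulation only (−2.01), where 15, 11 and 15 of all 359 did, and 1 passed in limma-voom and with the replicate block. In the other alternatives neither passed, with medians of −0.69 at 34 days only and −0.76 with placebo only. The 4 general skeletal muscle miRNAs had a median of 0.03, which was 1.28 without CIA_B replicate 1 and −0.53 without CIA_B replicate 2, and summed to 241100 and 91580 cpm before and to 83910, 171200 and 268500 cpm after therapy. No member passed among the 8 of let-7 (median 0.07), the 2 endothelial (0.02), 2 smooth muscle (0.31) and 3 fibroblast miRNAs (−0.09), or the 2 products of H19, miR-675 (0.93). The 4 of miR-10 and miR-196 had a median of −0.20 with no member past the thresholds. They summed to 521500 and 236900 cpm in CIA_B and to between 87470 and 797100 cpm after therapy, the widest span in cpm of any list here. They are encoded in the Hox clusters. The fibroblast median was −0.54 without CIA_B replicate 1 and 0.60 without CIA_B replicate 2, the endothelial one 0.40 and −0.34, that of let-7 −0.13 and 0.20, and that of the miR-10 list 0.15 and −0.41, so each of these changed sign with the CIA_B library used. The 4 treated libraries with the higher miR-1-3p had less miR-10b-5p (70930 to 143100 cpm) than CIA_B replicate 1 (452400 cpm). Of the 4 with the lower miR-1-3p, 2 had more (713600 and 551700 cpm) and 2 less (174500 and 127100 cpm) than CIA_B replicate 2 (205400 cpm).

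**Figure D4:**
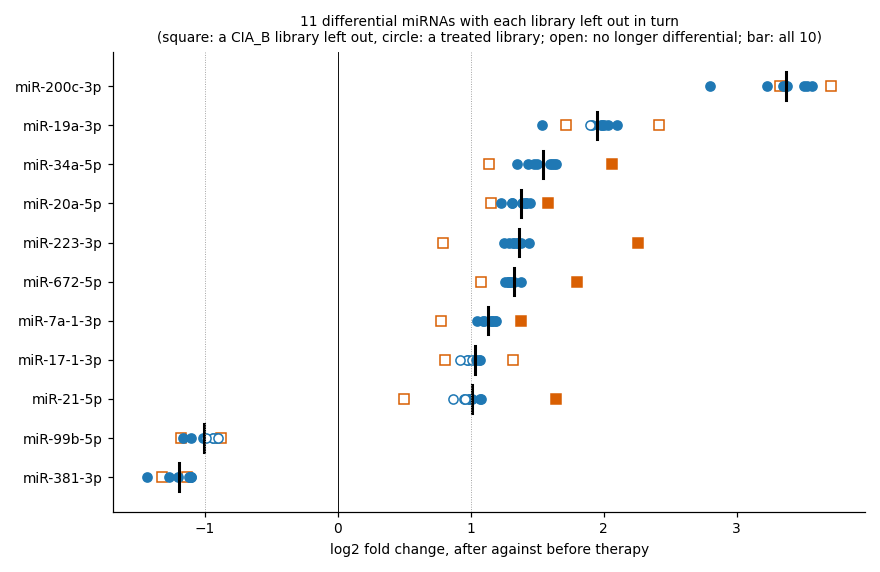
Log2 fold change of the 11 differential miRNAs when single libraries are left out (squares for the CIA_B libraries, circles for the treated ones, open symbols where the miRNA is no longer differential), with a bar for all 10 libraries. miR-223-3p moves from 0.79 to 2.26 with the CIA_B library that is left out, and stays close to 1.37 with any treated library left out.

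Most calls needed CIA_B replicate 1, and some needed both CIA_B libraries. With either CIA_B library left out the group before therapy is a single library, assumed to vary like the treated groups. Without CIA_B replicate 1, the smallest library, 5 miRNAs were differential, of which 1 (miR-7a-1-3p) was among the 11, and without CIA_B replicate 2 there were 15, with 5 of the 11 among them. Leaving out any one of the 8 treated libraries gave between 8 and 21, with between 7 and 11 of the 11 among them. miR-20a-5p, miR-34a-5p, miR-672-5p and miR-223-3p remained differential in 9 of these 10 fits, all but that without CIA_B replicate 1, where their log2 fold changes were 1.15, 1.14, 1.08 and 0.79. That of miR-21-5p was 0.50 without CIA_B replicate 1 and 1.64 without CIA_B replicate 2, and that of miR-223-3p 2.26 without the latter. For miR-200c-3p, miR-381-3p and miR-19a-3p the change without CIA_B replicate 1 stayed near its value with all 10 libraries (the plot of left-out libraries shows each), and p rose above the threshold. miR-7a-1-3p was lost only without CIA_B replicate 2. miR-200c-3p remained in 8, miR-19a-3p and miR-381-3p in 7, miR-17-1-3p and miR-21-5p in 4 and miR-99b-5p in 3. No direction changed in any of these fits for the 11.

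The 4 treated groups were then compared with one another, to see whether they differ by more than their own spread. By edgeR's quasi-likelihood test over the 4 means 15 miRNAs (4.18%) had an unadjusted p under 0.05 and none an adjusted one (smallest Benjamini-Hochberg adjusted p = 0.622). The 11 differential miRNAs had p from 0.101 (miR-19a-3p) to 0.946 (miR-34a-5p) in this test. The 5 with the smallest p were set by single libraries or by MS_E. miR-142-5p was at 5855 cpm in PLA_A replicate 1 and between 226 and 551 cpm in the other 7 treated libraries. miR-449a-5p and miR-34c-5p, which are abundant in ciliated epithelia and carry the miR-34 seed, were at 258.5 and 1497 cpm in MS_E replicate 1. In the other 7 treated libraries they did not exceed 3.62 and 17.6 cpm.

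The same library had 39.8 cpm of miR-184 against 2.14 to 5.31 cpm in the other 7, all of which lay below CIA_B (12.1 and 11.5 cpm). miR-675-3p, released from the growth-restraining RNA H19, was instead high in both MS_E libraries, at 32.4 and 43.6 cpm, against 8.78 to 19.2 cpm in the other 6 treated libraries and 11.3 cpm in each of CIA_B (unadjusted p = 0.00847 among the groups). No member of the miR-34 seed other than miR-34a-5p passed in the comparison of the 8 with the 2 libraries. Without MS_E replicate 1 the log2 fold changes of miR-34c-5p and miR-449a-5p fell from 4.96 and 4.39 to 0.76 and 0.37, while miR-34a-5p remained differential.

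**Figure D5:**
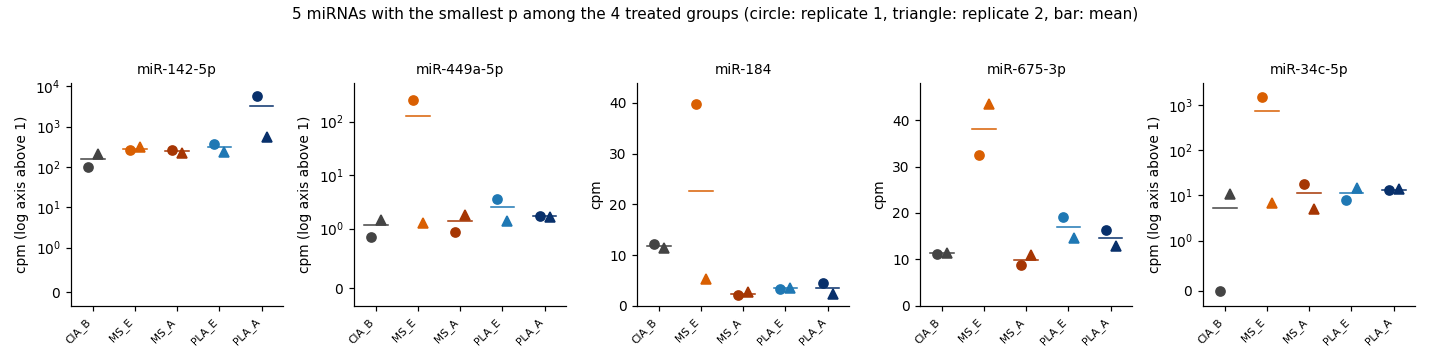
Level in cpm of the 5 miRNAs with the smallest p among the 4 treated groups in each of the 10 libraries, with circles for replicate 1, triangles for replicate 2 and a bar for the group mean (miR-142-5p, miR-449a-5p and miR-34c-5p on an axis that is logarithmic above 1). miR-449a-5p, miR-34c-5p and miR-184 stand high in MS_E replicate 1 alone, at 258.5, 1497 and 39.8 cpm, and miR-142-5p in PLA_A replicate 1 at 5855 cpm.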

How the data were processed

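Small RNA of excised tissue was measured in 10 libraries (TruSeq small RNA kit, Illumina HiSeq). Per the labels, demultiplexing used CASAVA 1.8; the authors trimmed adapters, discarded short reads, aligned the rest to rn4 and miRBase, counted with miRDeep2, and deposited raw counts per library. A mature miRNA with several precursors (35 of 723) took its largest count. A series-wide table, whose 20 value columns match no label, was left out. Reads per library, from 1513799 to 8926170, limit precision for low miRNAs, and floors of 3 reads account for counting error alone, because PCR copies are not separate molecules.

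From the counts of the 359 miRNAs that reached 1 cpm in 5 or more libraries (99.97% of reads), TMM factors (0.675 to 1.41), fold changes (prior count 2) and the quasi-likelihood test, with Benjamini-Hochberg adjustment over all 359, come from edgeR 4.0.16 (R 4.3.3). The main model had 1 term, after or before therapy; a model with 5 group means gave the changes per group and the test among the treated groups. Differential meant unadjusted p under 0.05 and over 2-fold, the thresholds of the study. Single miRNAs were tested by exact permutation of mean log2(cpm + 1) (scipy 1.17.1). The code was tested on simulated data. Named miRNAs were the 10 higher and 10 lower with the smallest p among those alike in sign in all 4 treated groups, any with an adjusted p under 0.05, members of 16 lists, the 5 with the smallest p among treated groups, and miR-1-3p, miR-206-3p and miR-133a-3p; others are said to be chosen after their values were seen. The members and lists were chosen with earlier results of these data known. Libraries of a group were no duplicates. Alternatives were other scalings, limma-voom (limma 3.58.1), DESeq2 1.42.0, other filters, summed precursors, a replicate block, a miR-1-3p covariate, equal weight for the 4 groups, subsets by time or arm, and each library left out in turn. RefSeq (GRCr8) gave sequences for 324 of the 359; its coordinates were not used beyond distances between precursors. Tables and figures used Python 3.11.15, pandas 2.3.3, numpy 2.4.6 and matplotlib 3.10.9.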

Additional observations from a re-analysis of the deposited data

Results flagged for a closer look

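In 8 of the 52 miRNAs looked at, 1 of the 8 libraries after therapy stood apart from the rest on the log2(cpm + 1) scale (Dixon's 95% criterion, gap over range above 0.526). Chance marks about 1 in 20 of values chosen without regard to them, but 4 of the 8 (miR-142-5p, miR-449a-5p, miR-184 and miR-34c-5p) were looked at because they had small p among the treated groups, so that rate is no measure here. MS_E replicate 1 was the library in 5 of them. It was the highest for miR-34c-5p (1497 cpm), miR-449a-5p (258.5 cpm), miR-184 (39.8 cpm) and miR-200b-3p (34.1 cpm), and the lowest for miR-29c-3p (112 cpm, against 277 to 564 cpm in the other 7). PLA_A replicate 1 was the highest for miR-142-5p (5855 cpm) and miR-142-3p (636 cpm), the products of 1 hairpin. PLA_E replicate 2 was the lowest for miR-223-3p, at 25.1 cpm against 43.3 to 70.1 cpm in the other 7.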

How the results depend on the processing

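Against 11 differential miRNAs after therapy, the 34 days libraries alone with CIA_B gave 31 and the placebo libraries alone 17, and leaving out each library in turn gave 5 (without CIA_B replicate 1) to 21 (without PLA_E replicate 2). For those also alike in sign in all 4 treated groups, again 11, that range was the same, 5 to 21, with 6 without PLA_E replicate 1. The replicate block gave 9; the replicate numbers did not pair the libraries (of 10 pairs of groups 4 had a correlation over 0.1, range −0.55 to 0.63). DESeq2's size factors in edgeR split the calls 7 higher to 3 lower, against 9 to 2. Library size alone moved the median of all miRNAs from 0.08 to 0.29. Among the treated groups 15 miRNAs had p under 0.05, against 9 with library size only, 5 with limma-voom, 32 with DESeq2, 33 with no filter, 7 with the replicate block, and 7 (without MS_E replicate 1) to 25 (without PLA_A replicate 2). There an adjusted p under 0.05 came with DESeq2 (8), no filter (5), without MS_E replicate 2 (6) and without PLA_A replicate 2 (1), and with none of the others in which this test was run (it was not run with the miR-1-3p covariate or on single times or arms). After against before therapy it came in none of the 24 alternatives, where the smallest was 0.113 (DESeq2). The log2 fold change of miR-184 turned from −0.53 to 0.25 with the 1 h libraries alone. Of 259 alternative values for the 11 differential miRNAs 189 remained past the thresholds, 70 did not, and none changed sign. The cause of these changes was not tested. Depth limits miR-672-5p, miR-19a-3p and miR-200c-3p most, with 1, 1 and 0 reads in CIA_B replicate 1.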
